A study of Rattus norvegicus with 24 samples.

Results

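Cytochrome b, the 3 core subunits of cytochrome c oxidase and ATP synthase subunits a and 8 are proteins of the respiratory chain and ATP synthase that are encoded by mitochondrial DNA. Their 6 transcripts were followed here in the hearts of rats labelled DAAO and rats labelled CTL. The transcripts were taken by Ensembl number: ENSRNOG00000031766 (Mt-cyb), ENSRNOG00000034234 (Mt-co1), ENSRNOG00000030371 (Mt-co2), ENSRNOG00000030700 (Mt-co3), ENSRNOG00000031979 (Mt-atp6) and ENSRNOG00000033299 (Mt-atp8). All 6 were found in both deposited tables, among 32883 rows each, and all 6 passed the filter on low values. The symbols came with the list of numbers. They were not checked against an annotation, because the reference at hand holds no Ensembl numbers.

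The libraries were made from total RNA of snap-frozen heart tissue of rats of strain WI under 12 numbers, 6 labelled DAAO and 6 labelled CTL. The numbers are taken here as animals. Each number has a library of left ventricle with septum and a library of right ventricular free wall, 24 in all. Animals are called here as in the columns of the tables, D_7142 or C_7005, for a DAAO or a CTL number. D-amino acid oxidase, for which DAAO commonly stands, releases hydrogen peroxide as it oxidises D-amino acids, and the series is titled as a study of chemogenetic heart failure. CTL is read as control. The labels give no vector, promoter, substrate, dose, time, age or sex, and do not say what the CTL rats received. The DAAO numbers all lie above the CTL numbers. No label names a cohort, but if the numbers follow cohorts, group and cohort cannot be told apart. No label states that each number is a separate rat, so the p-values are measured against the spread among these libraries, which would be technical in part if numbers shared a rat. The tissue labels were not checked against markers of heart cells, since marker genes could not be matched to rows.

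Mitochondrial DNA of mammals is transcribed as long polycistronic RNAs, from which the messengers are released by cutting at the transfer RNAs that lie between most of them. Cytochrome b is the core of complex III, which passes electrons to cytochrome c. Subunits 1, 2 and 3 form the core of complex IV, which passes electrons to oxygen. Subunits a and 8 belong to the membrane part of ATP synthase, complex V. Mt-atp8 and Mt-atp6 lie on 1 messenger, and are called separate transcripts here only because reads were counted by gene. Their reading frames overlap, so a read in the overlap can belong to both. How such reads were counted is not given in the sources used here. Heart muscle is rich in mitochondria, and these messengers are known to be abundant in it.

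The deposited values are normalized counts, gene counts divided by 1 size factor per library and set separately for each ventricle. Recovered reads numbered 15363539 to 23263897 in the left ventricular libraries, and 13280705 to 18777633 in the right ventricular ones. By number of reads, Mt-co1 ranked 1 of all genes in both ventricles. Mt-co3, Mt-cyb, Mt-atp6 and Mt-co2 ranked 2, 3, 4 and 5 in the left ventricle, and Mt-co3, Mt-atp6, Mt-cyb and Mt-co2 ranked 2, 3, 4 and 5 in the right. Mt-atp8 ranked 189 in the left and 831 in the right ventricle. Reads per gene grow with transcript length, and no lengths of the build were at hand, so levels were not compared between the 6 genes. Nuclear copies of mitochondrial DNA can share reads with these genes, and how such reads were assigned is not known. Counting error was small: the 95% Wilson interval of the share in a single library was at most 0.799% of the value wide for the 5 abundant transcripts. For Mt-atp8 it was at most 4.71% wide in the left and 9.47% in the right ventricle, where it rested on 1715 to 3783 reads. These intervals cover counting error only, since no molecular identifiers are known.

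The 6 transcripts together took a smaller mean share of the reads in DAAO than in CTL hearts, in both ventricles. In the left ventricle they held 13.6% to 18.4% of the library in the 6 DAAO samples (median 15.4%) and 15.5% to 23.0% in the 6 CTL samples (median 19.4%). The groups overlapped: 4 of 6 DAAO libraries lay below every CTL library. The means were 15.8% ± 1.86 in DAAO and 19.6% ± 2.78 in CTL (SD, n = 6 each). Right ventricular shares were 15.1% to 19.3% in DAAO (median 16.8%) and 16.9% to 24.6% in CTL (median 20.8%). There 3 of 6 DAAO libraries lay below every CTL library, and the means were 16.8% ± 1.55 in DAAO and 20.8% ± 2.58 in CTL (SD, n = 6 each). A share summed over chosen transcripts was given no test. In bulk tissue, fewer cells of a type and less RNA per cell cannot be told apart, and the same holds for fewer mitochondria.

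**Figure D1:**
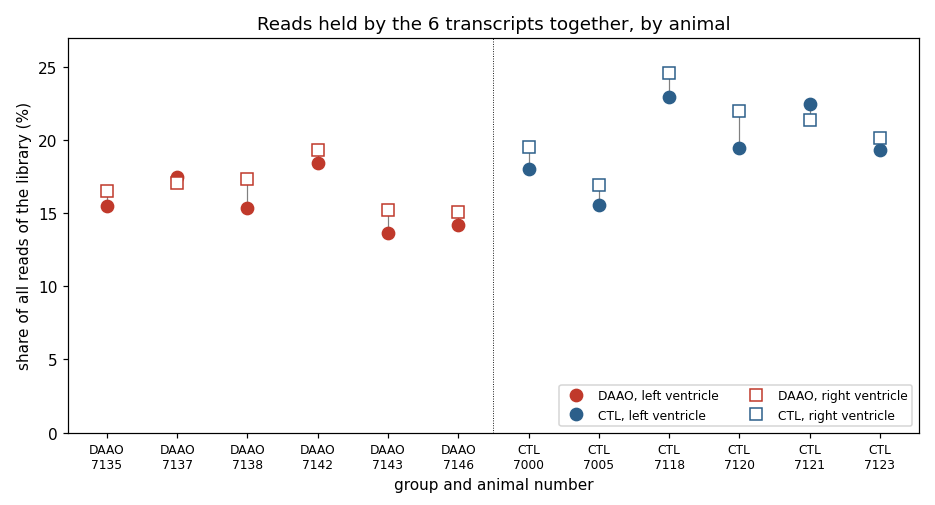
Share of all reads of a library held by the 6 mitochondrially encoded transcripts together (y axis, percent), by group and animal number (x axis). Filled circles are left ventricular and open squares right ventricular libraries, and a line joins the libraries of the same number. In the left ventricle DAAO libraries sit between 13.6% and 18.4% and CTL libraries between 15.5% and 23.0%.

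Within a group, the animals with extreme values were mostly the same in both ventricles. Among DAAO rats, D_7142 had the highest summed share in the left (18.4%) and in the right ventricle (19.3%). The lowest DAAO value was that of D_7143 in the left (13.6%) and of D_7146 in the right ventricle (15.1%). Among CTL rats, C_7118 was highest in both, at 23.0% and 24.6%, and C_7005 was lowest in both, at 15.5% and 16.9%. C_7005 thus lay within the range of the DAAO animals in both ventricles. The numbers C_7000 and C_7005 are far from all others. C_7000 had the next lowest summed share after C_7005 among CTL rats in both ventricles, at 18.0% and 19.5%. Leaving out both therefore raises the CTL minimum. Without both, all 6 DAAO libraries were below the 4 remaining CTL libraries in both ventricles. The lowest summed shares of those 4 were 19.4% in the left and 20.2% in the right ventricle. With the lowest CTL rats left out, this separation is given as a description only. How many other sums of genes separate likewise was not counted.

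Single transcripts showed the same order of means, with 1 exception. For Mt-cyb the left share was 2.50% ± 0.285 in DAAO and 3.13% ± 0.411 in CTL, and the right share 2.39% ± 0.264 in DAAO and 2.80% ± 0.315 in CTL (SD, n = 6 each, here and below). Mt-co1 alone held 6.85% ± 0.981 of left DAAO and 8.60% ± 1.37 of left CTL libraries, and 7.40% ± 0.824 of right DAAO and 9.28% ± 1.31 of right CTL libraries. The left share of Mt-co2 was 1.65% ± 0.148 in DAAO and 2.07% ± 0.327 in CTL, and its right share 1.83% ± 0.221 in DAAO and 2.22% ± 0.269 in CTL. These 3 transcripts overlapped between the groups in both ventricles. Mt-co3 held 2.60% ± 0.281 of left DAAO and 3.39% ± 0.415 of left CTL libraries, with 5 of 6 DAAO libraries below every CTL library. Its right share was 2.34% to 3.01% in DAAO and 3.02% to 3.99% in CTL. These ranges did not overlap, by a narrow gap between 3.008% and 3.024%. How many of all genes separate likewise as shares was not counted. As normalized counts, 5.5% of the 13489 genes tested in the right ventricle did. Mt-atp6 held 2.11% ± 0.250 of left DAAO and 2.40% ± 0.308 of left CTL libraries, and 2.52% ± 0.261 of right DAAO and 3.01% ± 0.392 of right CTL libraries. For Mt-atp8 the left share was 0.0460% ± 0.00610 in DAAO and 0.0553% ± 0.00766 in CTL. Its right share was the exception, with 0.0160% ± 0.00369 in DAAO and 0.0144% ± 0.00212 in CTL, a difference within the spread of either group.

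The 5 abundant transcripts of the 6 were also 5 of the 10 genes with the most reads in either ventricle. In the left ventricle these 5 held 15.7% ± 1.86 of the reads in DAAO and 19.6% ± 2.77 in CTL, while the 5 other genes of the 10 held 5.42% ± 0.659 in DAAO and 6.99% ± 0.715 in CTL (SD, n = 6 each). Among right ventricles the 5 transcripts of the 6 held 16.7% ± 1.55 in DAAO and 20.8% ± 2.57 in CTL. The 5 other genes there held 6.25% ± 0.798 in DAAO and 7.09% ± 0.602 in CTL. The other genes of the 10 were not matched to names, so other mitochondrially encoded genes can be among them. The left ventricular share of the 10 genes differed by -5.45 percentage points between DAAO and CTL. The 5 transcripts of the 6 made up -3.88 points of it. For the right ventricle they made up -4.02 of -4.86 points. They also held most of the share of the 10 genes to begin with, in CTL libraries 19.6% of 26.6% in the left and 20.8% of 27.8% in the right ventricle.

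Cytochrome b was lower on average in DAAO hearts, by a difference that did not pass the test. Mt-cyb had 335387 to 524667 normalized counts in left DAAO libraries (median 389157) and 421238 to 750146 in left CTL libraries (median 614345). There 4 of 6 DAAO libraries lay below every CTL library. On the log2 scale, DAAO differed from CTL by -0.52 (SE 0.254, adjusted p = 0.122 by limma, over all genes tested). Right ventricular Mt-cyb had 293509 to 451796 normalized counts in DAAO (median 333251) and 396107 to 603662 in CTL (median 482280). Here 5 of 6 DAAO libraries lay below every CTL library, and the log2 difference was -0.47 (SE 0.264, adjusted p = 0.195 by limma).

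Among the subunits of cytochrome c oxidase, Mt-co1, which holds the site where oxygen is reduced, had 900389 to 1565682 normalized counts in left DAAO (median 1058041) and 1086691 to 2105795 in left CTL libraries (median 1676046). Its right ventricular values were 910868 to 1410589 in DAAO (median 960621) and 1170956 to 1987797 in CTL (median 1620133). The groups overlapped in both ventricles, with 3 of 6 left and 4 of 6 right DAAO libraries below every CTL library. The log2 differences were -0.52 (SE 0.373, adjusted p = 0.284 by limma) in the left and -0.57 (SE 0.400, adjusted p = 0.306 by limma) in the right ventricle.

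Mt-co2, the subunit that takes electrons from cytochrome c, had 233391 to 345217 normalized counts in left DAAO (median 262367) and 277296 to 532754 in left CTL libraries (median 403589). Its right ventricular values were 197732 to 328688 in DAAO (median 267611) and 304163 to 471029 in CTL (median 386349). Of the 6 DAAO libraries, 4 in the left and 5 in the right ventricle lay below every CTL library. The log2 difference was -0.52 in the left (SE 0.225, adjusted p = 0.0856 by limma) and -0.52 in the right ventricle (SE 0.248, adjusted p = 0.129 by limma). Without C_7005 it passed in the left ventricle (log2 difference -0.62, adjusted p = 0.0380 by limma).

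Mt-co3, the remaining subunit of that core, had the most negative log2 difference of the 6 in both ventricles. It had 346499 to 543759 normalized counts in left DAAO (median 405675) and 487889 to 824587 in left CTL libraries (median 658226), with 4 of 6 DAAO libraries below every CTL library. Its right ventricular values were 315374 to 486306 in DAAO (median 362157) and 497360 to 721302 in CTL (median 590670). Here all 6 DAAO libraries lay below all 6 CTL libraries, for 1 of the 6 transcripts, as was the case for 5.5% of the 13489 genes tested. Left ventricular groups overlapped for each of the 6, while 8.28% of 14041 genes were lower in every DAAO library there. The log2 difference of Mt-co3 was -0.58 in the left (SE 0.255, 95% interval -1.13 to -0.03, adjusted p = 0.0888 by limma) and -0.66 in the right ventricle (SE 0.275, 95% interval -1.24 to -0.07, adjusted p = 0.0901 by limma). The adjusted p missed the threshold of 0.05 in both.

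Of the ATP synthase subunits, Mt-atp6, whose product forms part of the path for protons, had 268084 to 449689 normalized counts in left DAAO (median 331403) and 337847 to 584695 in left CTL libraries (median 448355). Its right ventricular values were 306597 to 441785 in DAAO (median 352375) and 417122 to 665455 in CTL (median 506201). In each ventricle 4 of 6 DAAO libraries lay below every CTL library. The log2 difference was -0.38 in the left (SE 0.236, adjusted p = 0.216 by limma) and -0.50 in the right ventricle (SE 0.273, adjusted p = 0.186 by limma).

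Mt-atp8, which encodes a small subunit of the same membrane part, fell in the left ventricle. It had 5862 to 10324 normalized counts in DAAO (median 7486) and 7880 to 13175 in CTL (median 10993), and 4 of 6 DAAO libraries lay below every CTL library. The log2 difference was -0.47 (SE 0.156, adjusted p = 0.0313 by limma). The call was lost without any 1 of C_7118, C_7121, C_7123, D_7135, D_7138, D_7143 and D_7146, where the log2 difference was between -0.48 and -0.39 and the adjusted p by limma was at most 0.0726. Right ventricular Mt-atp8 had 1554 to 3283 normalized counts in DAAO (median 2267) and 2010 to 3322 in CTL (median 2449). The highest DAAO library almost reached the highest CTL library, 3 of 6 DAAO libraries lay below every CTL library, and the log2 difference was -0.12 (SE 0.179, 95% interval -0.50 to 0.26, adjusted p = 0.650 by limma). This value ran from -0.23 without D_7137 to -0.011 without D_7143, and no single omission brought it past the test.

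Within a group the spread was similar across the transcripts. In left ventricles the coefficient of variation of the normalized counts was 16.3% to 22.5% in DAAO and 20.2% to 23.4% in CTL. In right ventricles it was 16.9% to 20.3% in DAAO and 13.6% to 17.0% in CTL for the 5 abundant transcripts, and for Mt-atp8 it was 28.8% in DAAO and 18.3% in CTL. C_7005 and C_7000 had the lowest CTL values of Mt-cyb, Mt-co1, Mt-co2, Mt-co3 and Mt-atp6 in both ventricles, and of Mt-atp8 in the left. Without C_7000 and C_7005, all 6 DAAO libraries lay below the 4 remaining CTL libraries for Mt-cyb, Mt-co1, Mt-co2 and Mt-co3 in both ventricles. This was then the case for 18.3% of the genes tested in the left and 10.7% in the right. For Mt-atp6 this held for 5 of 6 left and 6 of 6 right DAAO libraries, and for Mt-atp8 for 5 of 6 left and 3 of 6 right ones. Mt-co2, Mt-co3 and Mt-atp8 were then called lower in the left ventricle (adjusted p = 0.0244, 0.0419 and 0.00342 by limma), beside 23.5% of genes, and 0 of the 6 in the right, beside 14.8% of genes.

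**Figure D2:**
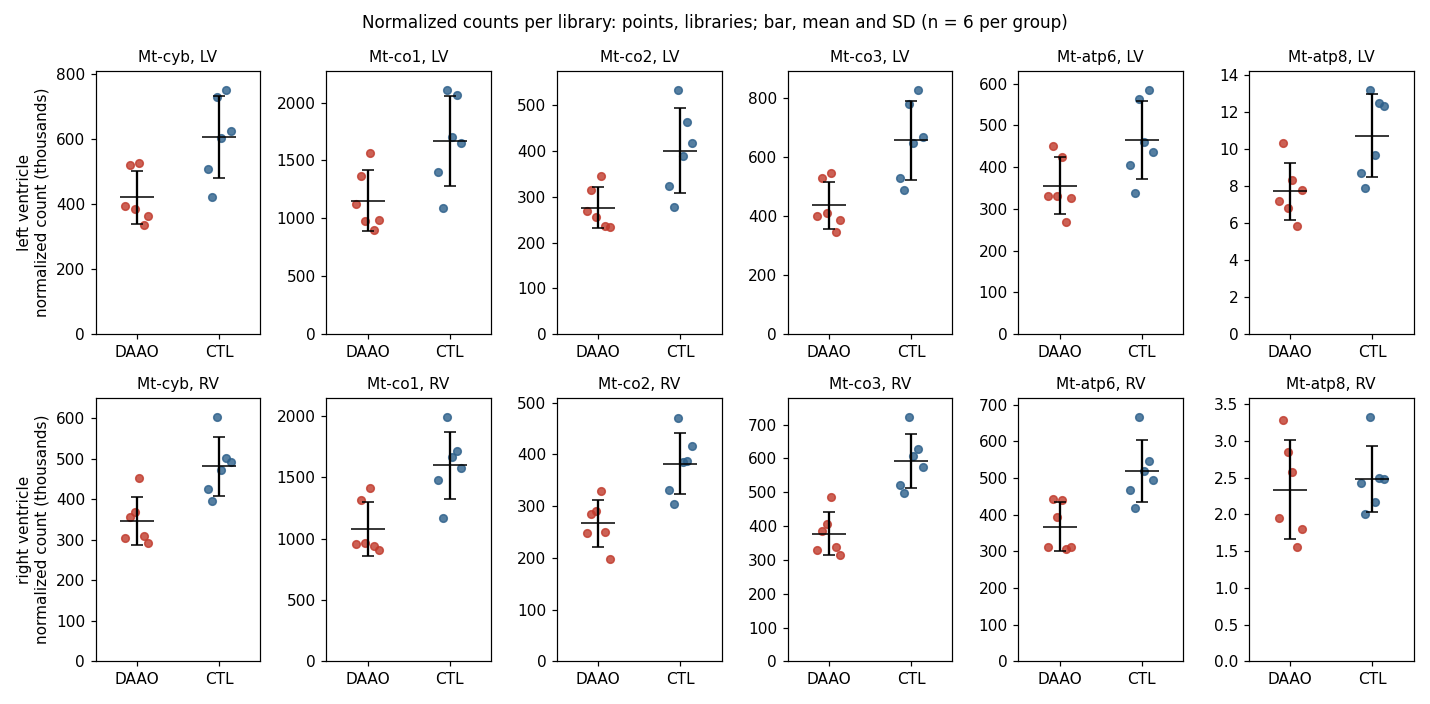
Normalized counts divided by 1000 (y axes, each from 0) of the 6 transcripts in the left ventricle (LV, upper row) and right ventricle (RV, lower row) of DAAO and CTL hearts. Points are libraries and bars the mean and SD of 6. For right ventricular Mt-co3 all DAAO points lie below all CTL points, while those of Mt-atp8 spread from 1554 to 3283, across most of the CTL range of 2010 to 3322.

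In all, 1 of the 6 transcripts was called lower and 0 higher in the left ventricle, where limma called 37.3% of 14041 genes, 20% lower and 17.3% higher in DAAO. None of the 6 was called in the right ventricle, where it called 26.5% of 13489 genes, 14% lower and 12.5% higher. At an unadjusted p under 0.05, 3 of 6 were lower in the left and 1 of 6 in the right ventricle by limma, against 24.3% and 20.1% of all genes tested. The median log2 difference of the 6 was -0.52 in the left and -0.51 in the right ventricle, against 0.01 and 0.02 over all genes tested. For the 11 other genes with a mean of at least 100000 normalized counts in the left ventricle it was -0.44, and 5 of these were called lower and 0 higher. For the 10 other genes of that abundance in the right ventricle it was -0.49, and 4 were called lower and 0 higher. These other genes were not matched to names, so other mitochondrially encoded genes can be among them.

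The number of calls differed between fits, which differ among other things in how the spread is estimated. The limma fit draws each gene's spread toward a trend over abundance. For the 5 most abundant transcripts the trend stood far above their own residual SD, on the log2 scale. For Mt-co1 it was 1.18 against an own SD of 0.34 in the left ventricle, and 1.19 against 0.27 in the right. For Mt-atp8, with fewer reads than these 5, it was 0.17 against 0.30 in the left and 0.21 against 0.34 in the right ventricle. Without the trend, limma called 5 of 6 lower in the left ventricle, where 19.5% of genes were called lower, with Mt-atp6 the exception (adjusted p = 0.0759). It also called 5 of 6 lower in the right ventricle, where 13.1% were called lower, with Mt-atp8 the exception (adjusted p = 0.676). On the recovered reads, edgeR called 4 of 6 lower in the left ventricle, where it called 19.3% of genes lower, leaving out Mt-co1 and Mt-atp6. DESeq2 called 6 of 6 there, beside 21.2% of genes. Both called all but Mt-atp8 in the right ventricle, beside 13.6% of genes for edgeR and 15.9% for DESeq2.

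The size of the difference also depended on the scaling. The deposited normalized counts summed to 16685556 ± 1368464 per library in DAAO and 19195898 ± 1626025 in CTL in the left ventricle, and to 14504747 ± 1388922 in DAAO and 17159688 ± 722773 in CTL in the right (SD, n = 6 each). When libraries were brought to equal totals, which compares shares, the median log2 difference of all genes moved to 0.21 in the left and 0.27 in the right ventricle. The calls over all genes were then 1631 lower and 4325 higher in the left ventricle, against 2805 and 2430 on the deposited scale. For the right ventricle they were 933 lower and 3802 higher, against 1890 and 1684. On that scale the 6 transcripts lay between -0.38 (Mt-co3) and -0.18 (Mt-atp6) in the left ventricle, with a median of -0.32. Mt-co3 (adjusted p = 0.0223 by limma) and Mt-co2 (adjusted p = 0.0480 by limma) were called lower there, beside 11.6% of genes, and the call of Mt-atp8 was lost (adjusted p = 0.0557 by limma). Right ventricular values lay between -0.41 (Mt-co3) and 0.13 (Mt-atp8), with a median of -0.27. Of these 0 were called, beside 6.92% of genes, with adjusted p by limma from 0.107 to 0.517. The sign of right ventricular Mt-atp8 thus turned with the scaling, while the 5 other transcripts were lower on average in DAAO on both scales.

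**Figure D3:**
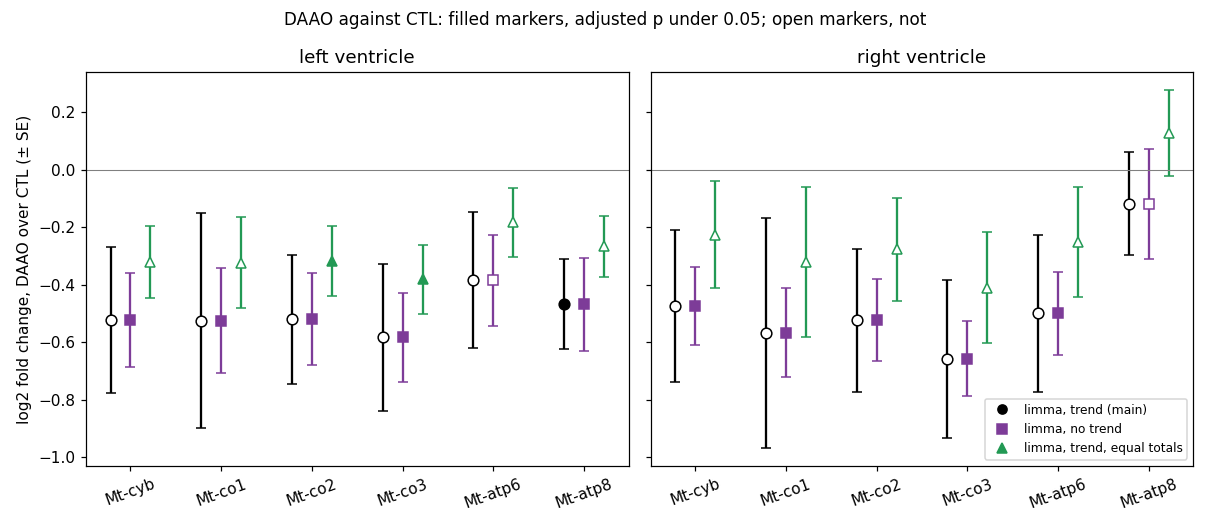
Log2 fold change (here called log2 difference) of DAAO over CTL with its SE (y axis) for each transcript in the left and right ventricle. Circles are the limma fit with a trend on the deposited scale, squares the same without the trend, and triangles the fit with a trend after scaling to equal totals, and filled markers passed an adjusted p of 0.05. The squares have shorter error bars for the 5 abundant transcripts, and the triangles lie closer to 0 except for right ventricular Mt-atp8, which lies above 0.

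More genes had at least 1 read in DAAO than in CTL right ventricles, 17157 ± 532 against 16051 ± 416, while the left ventricle had 18393 ± 317 in DAAO and 18282 ± 550 in CTL (SD, n = 6 each). Recovered reads averaged 16480264 in right DAAO and 15498549 in right CTL libraries. In the left ventricle they averaged 17619335 in DAAO and 18393042.5 in CTL. The part of depth in the number of genes with at least 1 read was not tested. Nor was the part of that number in the results on the 6 transcripts.

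The 5 abundant transcripts varied together from library to library. After the group means were taken out, Pearson's r of their log2 values over the 12 libraries of a ventricle was between 0.91 and 0.99 for the 10 pairs among them in the left and between 0.83 and 0.98 in the right ventricle. The 5 pairs with Mt-atp8 gave 0.84 to 0.90 in the left and 0.71 to 0.89 in the right. These values are descriptions, and the pairs share the libraries and their size factors.

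The makeup of the 6 does not depend on the scaling of a library, and it was given no test beyond the ratio of the ATP synthase subunits. Mt-co1 took 43.4% ± 1.60 of their summed reads in left DAAO and 43.7% ± 1.17 in left CTL libraries, and Mt-cyb 15.9% ± 0.377 in left DAAO and 16.0% ± 0.307 in left CTL libraries. Mt-co3 took 16.5% ± 0.560 in left DAAO and 17.3% ± 0.793 in left CTL libraries. Mt-atp6 took 13.4% ± 0.746 in left DAAO and 12.3% ± 0.545 in left CTL libraries, with higher values in 4 of 6 DAAO libraries than in any CTL library (SD, n = 6 each). Among right ventricles Mt-co3 took 15.5% ± 0.951 in DAAO and 16.6% ± 0.644 in CTL, with 5 of 6 DAAO libraries below every CTL library. Mt-cyb took 14.3% ± 0.796 in right DAAO and 13.5% ± 0.475 in right CTL libraries, and Mt-atp6 15.1% ± 0.882 in right DAAO and 14.5% ± 0.419 in right CTL libraries. Mt-atp8 took 0.0950% ± 0.0186 in right DAAO and 0.0695% ± 0.00598 in right CTL libraries, and 5 of 6 DAAO libraries were higher than any CTL library.

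The ratio of Mt-atp8 to Mt-atp6, neighbours on 1 messenger, is likewise free of the library's scaling. Left ventricles had 19.7 to 23.9 Mt-atp8 reads per 1000 Mt-atp6 reads in DAAO (median 21.8) and 21.0 to 28.2 in CTL (median 22.4). The groups overlapped, and the difference in mean log2 ratio was -0.08 (exact permutation p = 0.329, two-sided, n = 6 each). It was -0.025 without C_7123, the CTL library with the highest ratio, and -0.11 without D_7146. Right ventricles had 5.07 to 7.43 in DAAO (median 6.07) and 4.17 to 5.17 in CTL (median 4.91). All CTL libraries were exceeded by 5 of 6 DAAO libraries. The ratio was 1.30 times higher in right DAAO than in right CTL ventricles, a log2 difference of 0.38 (exact permutation p = 0.00433, two-sided, 0.00866 after Benjamini-Hochberg adjustment over the 2 ventricles, n = 6 each). The smallest p this design allows is 0.00216. On the deposited scale the right ventricular log2 difference was -0.12 for Mt-atp8 and -0.50 for Mt-atp6, with a median of 0.02 over all genes tested. Other genes were not set over Mt-atp6, so the ratio does not show a shift particular to Mt-atp8. Whether the DAAO difference in this ratio differed between the ventricles was tested over animals after the values were seen, with libraries of the same number taken as 1 animal. The left minus right difference was -0.46 on the log2 scale (exact permutation p = 0.00433, two-sided, n = 6 each), and leaving out 1 animal at a time gave values from -0.53 to -0.40. Mt-atp8 rested on far fewer reads than Mt-atp6 in right ventricles, and the part of the overlapping reading frames in this ratio was not tested.

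**Figure D4:**
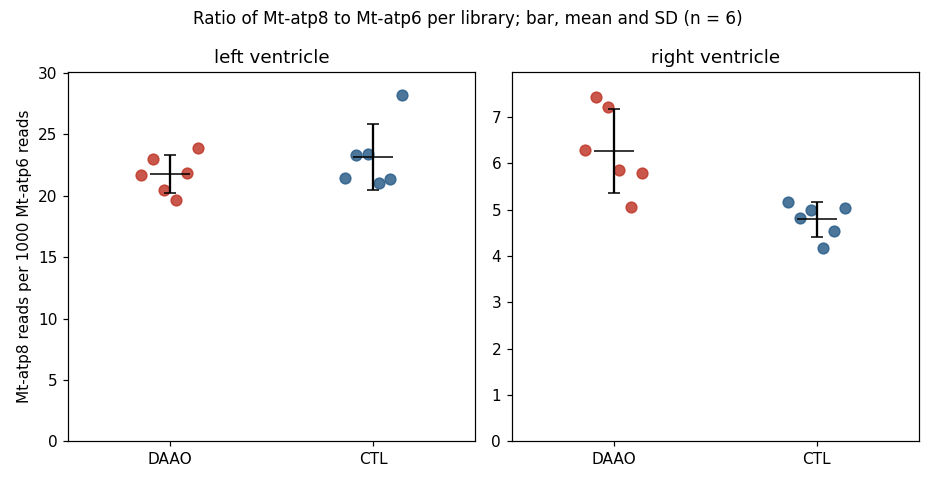
Mt-atp8 reads per 1000 Mt-atp6 reads (y axes, from 0, with different ranges) in DAAO and CTL libraries of the left and right ventricle. Points are libraries and bars the mean and SD of 6. The right ventricular points reach at most 7.43, below the lowest left ventricular point at 19.7.

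Mt-atp8 also stood apart between the ventricles. The tables were normalized separately, so shares of library reads were set side by side and given no test. Mt-atp8 held 0.0382% to 0.0566% of the reads in left DAAO and 0.0468% to 0.0641% in left CTL libraries. It held 0.0111% to 0.0203% in right DAAO and 0.0122% to 0.0184% in right CTL libraries. Its left share was higher than the right share for all 12 animal numbers, by 2.96 ± 0.510 times in DAAO and 3.86 ± 0.418 times in CTL (SD, n = 6 each). Of 13344 genes tested in both tables, 0.892% had a ratio of mean left to mean right share as high as the 3.33 of Mt-atp8.

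The other transcripts had left over right shares closer to 1. The ratio was between 0.95 and 1.30 for Mt-cyb over the 12 animals, between 0.87 and 1.02 for Mt-co1, between 0.80 and 1.01 for Mt-co2, and between 0.90 and 1.23 for Mt-co3. For Mt-atp6 it was between 0.75 and 0.91, so its right share was higher for all 12 numbers. The right share was also higher for 11 of 12 numbers for Mt-co1 and for Mt-co2. Of 13344 genes, 81.6% had a ratio of mean left to mean right share as high as the 0.82 of Mt-atp6. The percentage was 68.2% for the 0.93 of Mt-co1 and 69.6% for the 0.92 of Mt-co2. Reads of Mt-atp8 were thus scarcer and reads of Mt-atp6 more frequent in right than in left ventricular libraries. Both lie on 1 messenger, so this describes reads as counted. The part of read assignment in it was not tested.

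**Figure D5:**
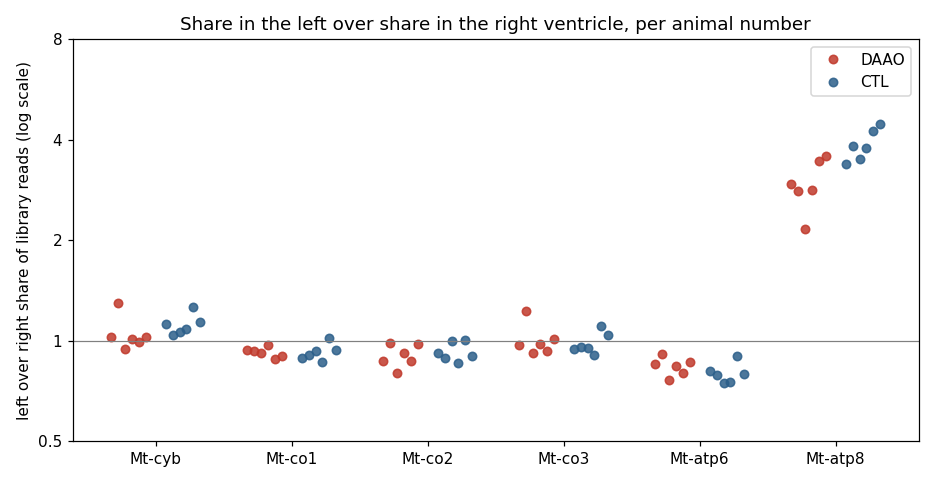
Share of library reads in the left ventricle over the share in the right ventricle of the same animal number (y axis, log scale) for each transcript, with DAAO points left of CTL points. Each point is 1 animal number, and the grey line marks equal shares. Mt-atp8 points lie between 2.17 and 4.45, and those of the 5 other transcripts between 0.75 and 1.30.

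The DAAO differences of single transcripts were compared between the ventricles in a limma fit over all 24 libraries. The left minus right value, on the log2 scale, was 0.04 for Mt-co1 (95% interval -0.86 to 0.94), 0.00 for Mt-co2 (-0.59 to 0.60) and 0.07 for Mt-co3 (-0.57 to 0.71). It was -0.05 for Mt-cyb (95% interval -0.68 to 0.585), 0.12 for Mt-atp6 (-0.51 to 0.74) and -0.35 for Mt-atp8 (-0.86 to 0.16). None of the 6 passed (adjusted p by limma from 0.50 to 0.997), where 2.93% of the 13344 genes compared were called, 1.57% with the more positive value in the left and 1.36% in the right ventricle. Both edgeR and DESeq2 called 0 of the 6 as well, and 0 had an unadjusted p under 0.05 in this limma fit, which has no term for the animal numbers that left and right libraries share. For the 5 abundant transcripts the intervals reach past 0.5 on both sides of 0, close to the size of the DAAO differences themselves.

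By the rule for likeness, the genes outside the 6 whose log2 values followed the summed 6 most closely were ENSRNOG00000029042 and ENSRNOG00000030644. After the group means were taken out, Pearson's r over the 12 libraries was 0.96 in the left and 0.97 in the right ventricle for ENSRNOG00000029042, and 0.96 and 0.91 for ENSRNOG00000030644. The median of the lower of both values was -0.10 over the 10949 genes ranked. ENSRNOG00000029042 averaged 40244 ± 7988 normalized counts in left DAAO and 52110 ± 10391 in left CTL libraries, a log2 difference of -0.37 (SE 0.165, adjusted p = 0.0937 by limma). In right ventricles it fell, to 33370 ± 5966 in DAAO against 48636 ± 6452 in CTL (SD, n = 6 each), by a log2 difference of -0.55 (SE 0.153, adjusted p = 0.0172 by limma). ENSRNOG00000030644 averaged 220211 ± 47723 in left DAAO and 273703 ± 56676 in left CTL, and the log2 difference was -0.32 in the left (adjusted p = 0.257 by limma) and -0.39 in the right ventricle (adjusted p = 0.231 by limma). No name is given to these numbers, since neither the files nor the reference pairs them with one.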

How the data were processed

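The authors deposited, per the file names, 1 table of normalized counts per ventricle, a signal in which each library's gene counts are divided by its own size factor. STAR 2.7.0a, FastQC, DESeq2 1.26.0 and the build Rnor_6.0 are named in the submitters' processing notes. For the counter, the annotation and the use of strand, the sources used here give nothing. All values above 0 (100% within 1e-06) were whole multiples of the smallest value of their library, so reads were recovered by division.

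Groups were compared with limma 3.58.1 (under R 4.3.3), with its trend over abundance, fitted to log2(value + 1), two-sided, Benjamini-Hochberg adjusted over all genes with a mean of at least 10, at 0.05. Fold changes on this scale understate changes of genes with low values. The left minus right effect was fitted over 24 libraries. Alternatives included the quasi-likelihood test of edgeR 4.0.16 and DESeq2 1.42.0, both on recovered reads, where edgeR called 5230 genes in the left and 3497 in the right ventricle. Scripts were tested on simulated data. The 6 transcripts and all lists were chosen with earlier results of these data known. The lists of nuclear subunits, assembly factors, regulators and cell markers could not be matched to rows (0 of 32883 numbers found in the reference) and give no result. The genes to be named were the 6 and, without symbols, the 2 genes with the highest r to their sum (lower of the ventricles, mean of at least 50).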

Additional observations from a re-analysis of the deposited data

Results flagged for a closer look

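Among the values of the 6 transcripts, 56 groups of 6 libraries were screened for a library far from the others, and 2 were found, where chance alone marks about 1 in 20, or 2.8. In the left ventricle, animal C_7123 had a log2 ratio of Mt-atp8 to Mt-atp6 of -5.15, the highest of its group by a wide gap. In the right ventricle, animal C_7118 had 3322 normalized counts of Mt-atp8, far above the 5 other CTL libraries. The DAAO difference in the log2 ratio of Mt-atp8 to Mt-atp6 itself differed between the ventricles, at -0.46 left minus right (exact permutation p = 0.00433, two-sided, n = 6 each), a test chosen after the values were seen.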

How the results depend on the processing

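The number of the 6 transcripts called lower, 1 in the left and 0 in the right ventricle, depended on the fit, and is given here with the percentage of all genes tested that were called lower. In the left ventricle it was 4 when genes needed a mean of 100 (23.7%), 2 with equal totals (11.6%), 2 with equal totals without the 6 (14.2%), 5 without the trend (19.5%), 4 with sample quality weights (25.7%), 3 without C_7000 and C_7005 (23.5%), 4 with edgeR (19.3%) and 6 with DESeq2 (21.2%). Leaving out 1 animal gave 0 to 2 (16.8% to 22.8%). In the right ventricle it was 2 when genes needed a mean of 100 (18.5%), 5 without the trend (13.1%), 2 with sample quality weights (19.6%), 5 with edgeR (13.6%) and 5 with DESeq2 (15.9%), and 0 without any 1 animal (10.5% to 16.7%). The pseudocounts, TMM scaling and no filter left the number at 1 and 0. The standard errors of the 5 abundant transcripts were wider with the trend than without it, and those of Mt-atp8 were narrower. Why the calls moved between the settings was not tested. Right ventricular Mt-atp8 turned to 0.13 with equal totals and to 0.056 with equal totals without the 6. The left minus right difference was called for 0 transcripts under each setting run, the replicate block included, where Mt-atp8 alone of the 6 had an unadjusted p under 0.05 by limma (0.0195, adjusted p = 0.115, SE 0.135 against 0.248 without the block). Over all genes that difference was called for 391 in the limma fit, 1072 with the replicate block, 744 with DESeq2 and 236 without C_7000 and C_7005. Small differences turned sign: Mt-co1 to -0.0023 with equal totals and -0.026 without C_7000 and C_7005; Mt-co2 to -0.041 with equal totals, -0.038 with equal totals without the 6, -0.039 with quality weights, -0.061 without C_7000 and C_7005, -0.0039 with edgeR and -0.013 with DESeq2. Over single omissions Mt-co2 ran from -0.033 to 0.051 and Mt-cyb from -0.10 to 0.0040. Without the 10 most abundant other genes the summed right ventricular share was 18.5% in DAAO and 23.5% in CTL. Same-numbered left and right libraries had deviations that correlated at 0.057 to 0.788 across genes, over 0.1 for 10 of 12 numbers, and 9 of 12 correlated best with their own number. Depth limits Mt-atp8 most, with 1715 reads in its smallest library.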
